A study of Mus musculus with 6 samples.

Results

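The genes described here encode the respiratory chain and ATP synthase of liver mitochondria, complexes I to V, and are read from both genomes of the cell. They were chosen by symbol from a table of 28601 mouse genes: 113 names matched the patterns for Nd, Co, Cytb and Atp genes of mitochondrial DNA and for nuclear Nduf, Sdh, Uqc, Cox4 to Cox8 and Atp5 genes, and the 100 whose transcript types included protein coding were kept. Of these, 13 are encoded by mitochondrial DNA (7 in complex I, 1 in III, 3 in IV and 2 in V) and 87 by nuclear chromosomes (38 in complex I, 4 in II, 11 in III, 17 in IV and 17 in V). The choice rests on names, not on measured values. It takes in the complex III assembly factors Uqcc1, Uqcc2 and Uqcc3 and the rows Cox5b-ps and Ndufb1-ps, and it places Ndufa4 under complex I although the protein is now regarded as part of complex IV.

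RNA came from livers of 3 male mice carrying PRDX1 Cys52Ser and of 3 male WT mice. The enzyme, peroxiredoxin 1, reduces hydrogen peroxide through the cysteine that the substitution removes. All 6 mice were on CDAHFD, a choline-deficient, amino acid-defined, high-fat diet that brings on steatohepatitis and fibrosis, from 8 weeks of age and for 8 weeks, according to the titles and the design. A second label field of the samples counts weeks from 8 to 10 over the WT mice and from 11 to 13 over the Cys52Ser mice, and if it were a true time on the diet, it could not be told apart from genotype. No mice on a normal diet were analysed here. How the allele was made and the strain of the mice are not given in the sources used here.

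Electrons from NADH enter the chain at complex I and those from succinate at complex II, pass through ubiquinone, complex III and cytochrome c, and reach oxygen at complex IV. Complexes I, III and IV pump protons out of the matrix, and complex V lets them return to make ATP. Mitochondrial DNA is transcribed from both strands into long precursors that are cut into mRNAs, tRNAs and rRNAs, whereas each nuclear subunit gene has its own promoter. The chain is also a source of superoxide, from which the hydrogen peroxide that peroxiredoxins remove is formed, and hepatocytes are rich in mitochondria.

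Levels are given as CPM, the deposited counts relative to library size after scaling by trimmed mean of M-values (TMM). Differences are log2 fold changes of Cys52Ser over WT from edgeR's quasi-likelihood test with Benjamini-Hochberg adjustment over 18648 tested genes. A gene was called at an adjusted p under 0.05, as 4.98% of all tested genes were (2.52% higher and 2.46% lower). Libraries held 53318196 to 73900923 counts, and TMM factors were 0.885, 0.963 and 0.814 in Cys52Ser libraries against 1.21, 1.14 and 1.05 in WT libraries, so the members' medians and counts, and the calls of other named genes, are also given on other scales below. Prdx1 itself was counted at 859, 661 and 819 CPM in Cys52Ser livers, against 864, 919.5 and 978 CPM in WT livers, a log2 fold change of -0.24 (edgeR adjusted p = 0.421), and a change of 1 residue does not show in such counts. The livers also differed in cell type markers. All 6 hepatocyte markers were counted in every library and all were higher in Cys52Ser livers, with Cps1 and Hnf4a called. Their summed level was 110385, 102549 and 126216 CPM in Cys52Ser livers, against 38367, 56741 and 65297 CPM in WT livers, a median log2 fold change of 0.90. Lipid-associated macrophage markers (4 of 6 called lower) summed to 568 to 737 CPM in Cys52Ser livers and 1463 to 2660 CPM in WT livers, and stellate cell markers (3 of 6 called lower) to 817 to 999.8 CPM in Cys52Ser livers and 1388 to 2438 CPM in WT livers. Kupffer cell markers (2 of 5 called higher) summed to 468 to 603 CPM in Cys52Ser livers and 88.2 to 273 CPM in WT livers, and cholangiocyte markers (1 of 5 called lower) to 22.6 to 90.3 CPM in Cys52Ser livers and 47.2 to 123 CPM in WT livers. All 6 macrophage markers had negative log2 fold changes and all 5 Kupffer cell markers positive ones. Of the stellate cell markers, 5 were negative and 1 was positive (0.76). Among the cholangiocyte markers 4 were negative and 1 was positive (0.545). With library totals in place of TMM factors, 4 of the 6 hepatocyte and 2 of the 5 Kupffer cell markers were called higher. Called lower were 6 of 6 macrophage, 5 of 6 stellate cell and 2 of 5 cholangiocyte markers. At that setting 1.57% of all tested genes were called higher and 14.6% lower, with a median log2 fold change of -0.35. In bulk liver, more cells of a type and more RNA per cell cannot be told apart, and the part of these marker differences in the values below was not tested.

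All 13 mitochondrially encoded mRNAs were more abundant in each Cys52Ser liver than in any WT liver after TMM scaling, with log2 fold changes of 0.35 (mt-Co3) to 1.14 (mt-Nd4l) and a median of 0.50, a fold of 1.41. The median over all tested genes was -0.0032, and 14.4% of all tested genes had groups parted in this way in the higher direction. A single member, mt-Nd4l, was called higher and none lower. Over all tested genes, 2.52% were called higher and 2.46% lower. With RLE scaling factors mt-Atp8 was called higher as well (edgeR adjusted p = 0.0478), where 2.76% of all tested genes were called higher and 2.42% lower. With a filter of mean CPM of at least 1, mt-Atp8 was again added (edgeR adjusted p = 0.0416), where 4.11% were called higher and 3.96% lower. DESeq2 called 12 of the 13 higher and 0 lower, where it called 7.95% of all tested genes higher and 6.73% lower. At an unadjusted p under 0.05, 10 of the 13 were higher, where 11.3% of all tested genes were. The 13 mRNAs are cut from shared precursors and at least 7 of them share reads with a nuclear copy described below, so they are not independent measurements.

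**Figure D1:**
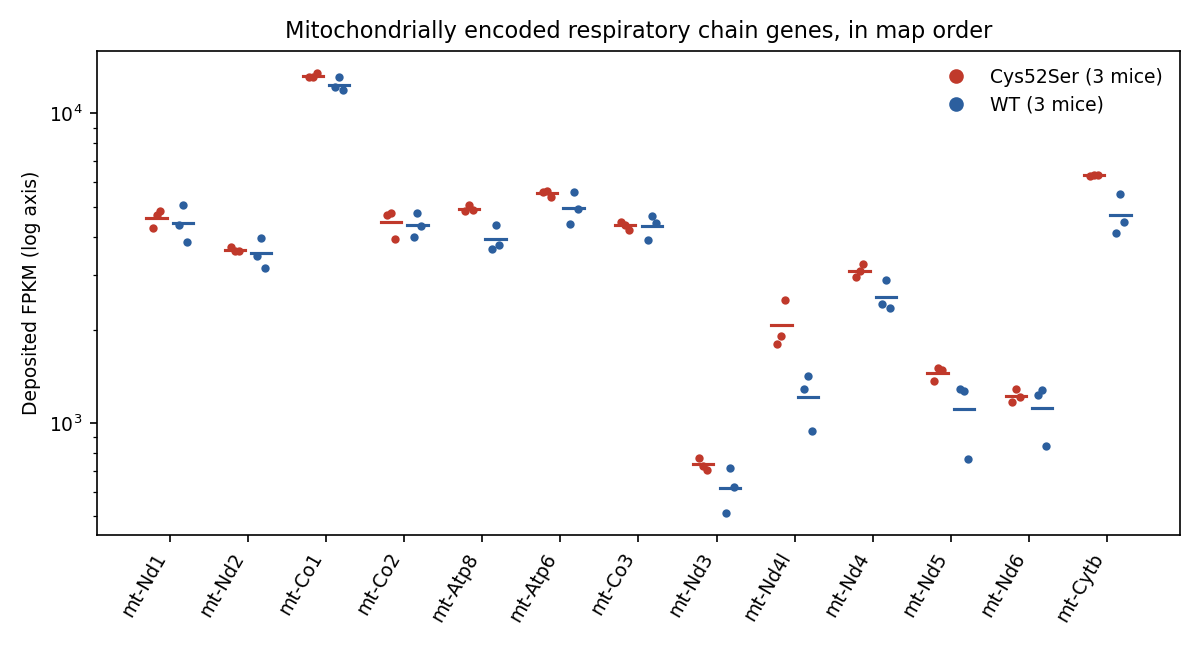
Deposited FPKM (log axis) of the 13 mitochondrially encoded mRNAs in map order, with a point for each of the 3 Cys52Ser and 3 WT livers. mt-Co1 is the highest and mt-Nd3 the lowest in both groups, and the groups part most widely at mt-Nd4l and mt-Cytb.

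Per length, mt-Co1 was the most abundant of the 13, at 13239 ± 245 FPKM in Cys52Ser livers and 12364 ± 652 FPKM in WT livers (SD, n = 3 each), and mt-Nd3 the least, at 736 ± 32.04 FPKM in Cys52Ser livers and 617 ± 103 FPKM in WT livers. FPKM are the authors' values, scaled to library size and transcript length and not by TMM. On that scale mt-Nd4, mt-Nd4l, mt-Nd5, mt-Cytb and mt-Atp8 lay higher in every Cys52Ser liver than in any WT liver, where 4.71% of all tested genes did, and the groups overlapped for the other 8.

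The 7 mitochondrial complex I genes encode the membrane arm, which moves the protons. mt-Nd4l (ENSMUSG00000065947, MT:9877-10173), a small subunit deep in that arm and the one with the largest change, was counted at 692, 669 and 1016 CPM in Cys52Ser livers, against 356, 419 and 304 CPM in WT livers. The lowest Cys52Ser liver thus stood well above the highest WT liver. Its log2 fold change was 1.14 with an SE of 0.21 and a 95% confidence interval of 0.64 to 1.64 (edgeR adjusted p = 0.0353, n = 3 each). The call was lost when any library other than Cys52Ser replicate 2 was left out, with adjusted p between 0.0631 and 0.0966.

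mt-Nd4, the gene that overlaps the end of mt-Nd4l on the same strand and is translated from the same mRNA, was counted at 5258, 5018 and 6158 CPM in Cys52Ser livers, against 3107, 3953 and 3536 CPM in WT livers. Its groups did not overlap, and the log2 fold change of 0.63 (SE 0.18) missed the threshold (edgeR adjusted p = 0.0861). The overlap is printed to show how closely the pair is joined: 24 bases of mt-Nd4l, the 7 shared bases in capitals, and 24 bases of mt-Nd4, on the plus strand of mitochondrial DNA at MT:10143-10197 in the GENCODE M21 transcripts.
mt-Nd4l and mt-Nd4: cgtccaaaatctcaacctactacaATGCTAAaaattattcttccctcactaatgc
A fragment over these bases can belong to either gene, so the 2 rows are not fully independent. Although both genes lie on the same mRNA, their log2 fold changes differed, at 1.14 for mt-Nd4l and 0.63 for mt-Nd4. The source of that difference was not tested.

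mt-Nd5, the distal proton-pumping subunit, was counted at 3224, 3230.4 and 3716 CPM in Cys52Ser livers, against 2179.6, 2309 and 1525 CPM in WT livers, where WT replicate 3 was the lowest of all 6. Its log2 fold change was 0.76 (SE 0.20, edgeR adjusted p = 0.0769). mt-Nd6, the only mRNA gene on the other strand, overlaps the end of mt-Nd5, and reads over the 14 bases that they share cannot be told apart if strand was not used in counting. It was counted at 785, 785 and 859 CPM in Cys52Ser livers, against 594, 660.5 and 479 CPM in WT livers, again lowest in WT replicate 3, with a log2 fold change of 0.49 (edgeR adjusted p = 0.129).

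mt-Nd3 was counted at 346, 299 and 337 CPM in Cys52Ser livers, against 166, 248 and 236 CPM in WT livers, a log2 fold change of 0.60 (edgeR adjusted p = 0.1). The subunits next to the ubiquinone site and behind it, mt-Nd1 and mt-Nd2, had smaller differences. mt-Nd1 was counted at 5262, 5292 and 6346 CPM in Cys52Ser livers, against 3883, 4824 and 4005 CPM in WT livers. For mt-Nd2 the counts came to 4953, 4390.5 and 5098 CPM in Cys52Ser livers, against 3349, 4086 and 3592 CPM in WT livers. Their log2 fold changes were 0.41 and 0.39 (edgeR adjusted p = 0.223 and 0.218), and in both the highest WT liver, replicate 2, came close to the lowest Cys52Ser liver.

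mt-Cytb encodes cytochrome b, the haem protein at the centre of complex III. It was counted at 9249, 8524 and 9905 CPM in Cys52Ser livers, against 4358, 6252 and 5546 CPM in WT livers. The log2 fold change was 0.78 with an SE of 0.19 (edgeR adjusted p = 0.0667), the second largest among the 13, and mt-Cytb has no copy on chromosome 1 in the table.

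The 3 mitochondrial genes of complex IV form its catalytic core and had 3 of the 5 smallest fold changes of the 13. mt-Co1, which holds the oxygen-reducing centre, was counted at 26114, 23845 and 28582 CPM in Cys52Ser livers, against 17411, 20114 and 19985 CPM in WT livers, a log2 fold change of 0.45 (edgeR adjusted p = 0.194). mt-Co2, which takes electrons from cytochrome c, was counted at 4153, 3848 and 3682 CPM in Cys52Ser livers, against 2532, 3229 and 3223 CPM in WT livers, a log2 fold change of 0.38 (edgeR adjusted p = 0.242). mt-Co3 was counted at 4529, 4028 and 4518 CPM in Cys52Ser livers, against 2847, 3623 and 3777 CPM in WT livers, with a log2 fold change of 0.35 and an interval of -0.06 to 0.76 that includes 0 (edgeR adjusted p = 0.291). In mt-Co2 and mt-Co3 it was WT replicate 1 that lay far below the rest, and WT replicates 2 and 3 were nearer to the Cys52Ser livers.

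mt-Atp8 and mt-Atp6 encode subunits of the membrane part of complex V, mt-Atp6 lining the proton path. mt-Atp8 was counted at 1279, 1214 and 1359.9 CPM in Cys52Ser livers, against 691, 885 and 835 CPM in WT livers, a log2 fold change of 0.68 with the smallest SE of the 13, 0.15 (edgeR adjusted p = 0.0525). mt-Atp6 was counted at 4892, 4515 and 5019 CPM in Cys52Ser livers, against 2786, 3779 and 3639 CPM in WT livers, a log2 fold change of 0.50 (edgeR adjusted p = 0.152). The 2 genes share 43 bases, printed in capitals because reads over them serve both, with 24 bases of mt-Atp8 before and 24 of mt-Atp6 after, at MT:7903-7993 on the plus strand.
mt-Atp8 and mt-Atp6: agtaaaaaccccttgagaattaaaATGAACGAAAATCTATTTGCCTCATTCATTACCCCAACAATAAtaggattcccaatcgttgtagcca

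**Figure D2:**
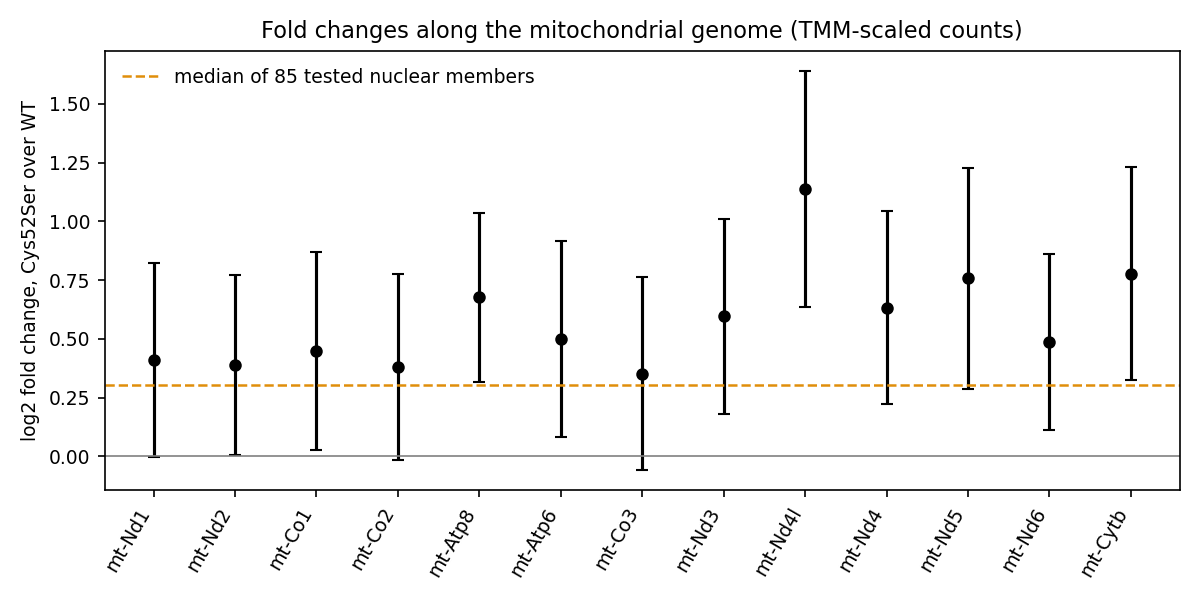
Log2 fold changes (Cys52Ser over WT, TMM-scaled counts) of the 13 mitochondrial mRNAs in map order, with 95% confidence intervals from edgeR; the dashed line is the median of the 85 tested nuclear members, 0.30. All 13 points lie above 0 and above that line, from 0.35 at mt-Co3 to 1.14 at mt-Nd4l, and the intervals of mt-Nd1, mt-Co2 and mt-Co3 reach below 0.

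The make-up of the mitochondrial mRNA pool also differed, a comparison that needs no scaling factor since each gene is taken as a share of the 13 summed FPKM in its own library. mt-Cytb made up 11.33% ± 0.05 in Cys52Ser livers and 9.49% ± 0.66 in WT livers (SD, n = 3 each). mt-Nd4l made up 3.72% ± 0.66 in Cys52Ser livers and 2.46% ± 0.38 in WT livers. mt-Atp8 made up 8.86% ± 0.15 in Cys52Ser livers and 7.97% ± 0.16 in WT livers, and mt-Nd4 5.58% ± 0.24 in Cys52Ser livers and 5.19% ± 0.10 in WT livers. In these 4 the groups did not overlap. mt-Co3 had the smaller share in every Cys52Ser liver, 7.82% ± 0.30 against 8.81% ± 0.65 in WT livers, and so did mt-Nd2, 6.52% ± 0.18 against 7.18% ± 0.29 in WT livers. The shares of the other 7 overlapped between the groups. The 13 shares add up to a whole, so a larger share of 1 gene lowers the others, and an exact permutation test of 3 against 3 livers cannot give a two-sided p below 0.1.

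Of the mitochondrial genes, 7 have a row for a near-identical nuclear copy, all in a single stretch of chromosome 1 (GRCm38 chr1:24611535-24616197, minus strand). The deposited table lists these as Gm10925 (copy of mt-Atp6), Gm29216 (part of mt-Co1), Gm28661 (mt-Co2), Gm28437 (mt-Co3), Gm28438 (mt-Nd3), Gm28439 (part of mt-Nd4) and Gm10222 (mt-Nd4l). Over the aligned bases of the GENCODE M21 transcripts, 5 of the 7 were identical to the mitochondrial gene, mt-Nd3 differed from its copy at 1 base and mt-Co1 at 6 of 492. The copies took 1.74%, 1.72% and 1.59% of the counts in Cys52Ser libraries and 1.43%, 1.75% and 1.57% in WT libraries. The mitochondrial members took 6.26%, 6.32% and 6.24% in Cys52Ser libraries and 5.35%, 6.20% and 5.30% in WT libraries.

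The stretch of mt-Nd4l that is identical to Gm10222 is printed because the called change rests on reads that both rows can claim: all 294 bases of the copy (MT:9877-10170, plus strand) occur in the gene.
mt-Nd4l: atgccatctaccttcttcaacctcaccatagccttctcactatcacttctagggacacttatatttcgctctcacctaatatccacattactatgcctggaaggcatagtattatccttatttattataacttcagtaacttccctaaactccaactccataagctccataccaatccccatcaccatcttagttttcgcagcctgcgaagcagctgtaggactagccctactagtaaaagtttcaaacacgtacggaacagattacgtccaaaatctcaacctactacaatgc
Gm10222 received 99.95% to 102% as many counts as mt-Nd4l in the 6 libraries, had a log2 fold change of 1.13 and was called higher as well (edgeR adjusted p = 0.034). These are not 2 findings. With each copy's counts added to its mitochondrial gene, a choice made after seeing the data, mt-Nd4l had a log2 fold change of 1.14 (edgeR adjusted p = 0.037). The single base that parts mt-Nd3 from Gm28438 is the substitution T3C, with positions counted from 1 at the 5′ end of mt-Nd3. The first 23 bases of each are printed with that base in capitals, for mt-Nd3 at MT:9459-9481 and for Gm28438 at GRCm38 chr1:24613097-24613119 on the minus strand.
mt-Nd3: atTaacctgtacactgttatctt
Gm28438: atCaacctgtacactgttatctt
Gm28438 received 95.0% to 98.3% as many counts as mt-Nd3. The 6 members without such a copy row, mt-Nd1, mt-Nd2, mt-Nd5, mt-Nd6, mt-Cytb and mt-Atp8, had log2 fold changes of 0.39 (mt-Nd2) to 0.78 (mt-Cytb). Of these, mt-Atp8 lies between mt-Co2 and mt-Atp6, whose copies are in that stretch, and it shares 43 bases with mt-Atp6. Its reads may thus also match chromosome 1, which was not tested.

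None of the 85 tested nuclear members was called higher or lower by edgeR (2.52% and 2.46% of all tested genes were), yet 79 had a positive log2 fold change and 6 a negative one, where 49.7% of all tested genes were positive. At an unadjusted p under 0.05, 30 nuclear members were higher and 0 lower, where 11.3% and 11.1% of all tested genes were. In 38 of them every Cys52Ser liver lay above every WT liver, and in 0 below, where 14.4% and 15.2% of all tested genes were so parted. The median log2 fold change was 0.30, a fold of 1.23, with an interquartile range of 0.23 to 0.37. DESeq2 called 15 of the 85 higher and 0 lower, where it called 7.95% of all tested genes higher and 6.73% lower. Cox4i2 and Cox8b had too few counts to be tested.

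**Figure D3:**
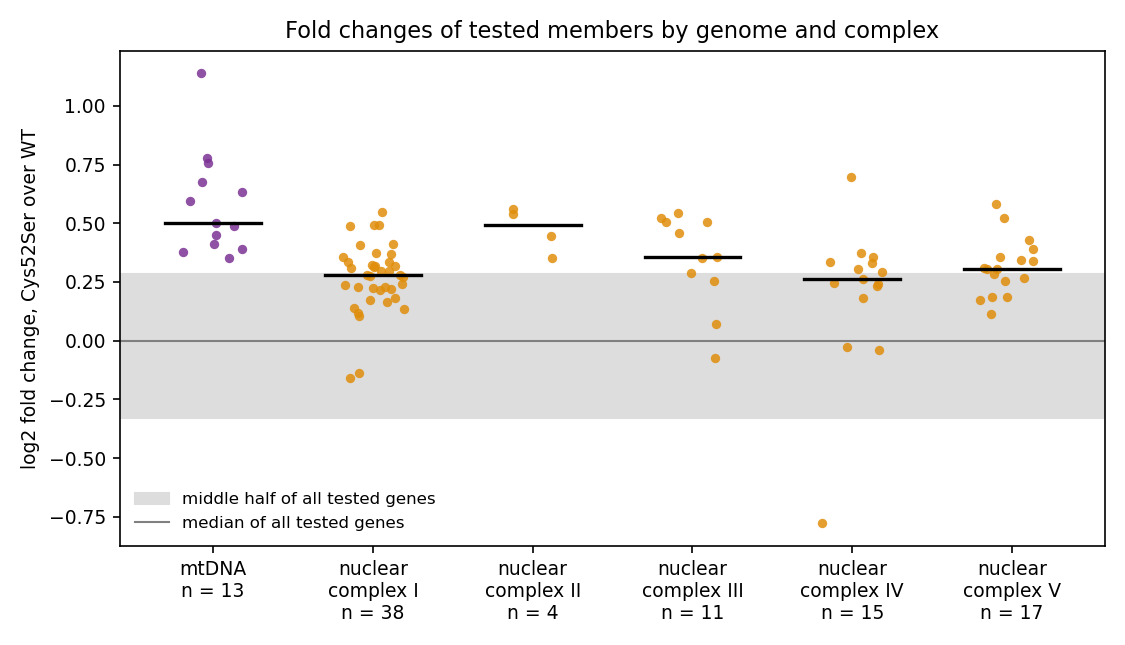
Log2 fold change (Cys52Ser over WT) of each tested member by genome and complex, with the median of each column as a line, the interquartile range of all tested genes as a grey band and their median of -0.0032 as a grey line. Complex II has the highest nuclear median (0.49), followed by III (0.36), V (0.31), I (0.28) and IV (0.26), and the widest points, in complex IV, are the low-count genes Cox6a2 and Cox7a1.

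In complex I the 7 nuclear subunits that carry the flavin and iron-sulfur centres from NADH to ubiquinone had a median log2 fold change of 0.49, against 0.24 for the other 31 nuclear subunits, which surround them. This division by role was drawn after values had been seen and is a description. In all 7 every Cys52Ser liver lay above every WT liver, as in 11 of the other 31, where 14.4% of all tested genes were so parted. Ndufs7 (ENSMUSG00000020153), which holds the last iron-sulfur cluster before ubiquinone, was counted at 67.2, 59.1 and 77.5 CPM in Cys52Ser livers, against 45.2, 47.7 and 51.7 CPM in WT livers. Its log2 fold change of 0.49 (SE 0.12) missed the threshold (edgeR adjusted p = 0.0678) and passed it with a filter of mean CPM of at least 1 (adjusted p = 0.0499) and in DESeq2. Ndufs1 (ENSMUSG00000025968), the largest subunit, was counted at 123, 133 and 157 CPM in Cys52Ser livers, against 80.3, 102 and 99.97 CPM in WT livers, a log2 fold change of 0.55 (SE 0.15, edgeR adjusted p = 0.0768).

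Ndufv1 binds NADH and the flavin, and was counted at 127, 139.7 and 167 CPM in Cys52Ser livers, against 97.8, 104 and 108 CPM in WT livers (log2 fold change 0.49, edgeR adjusted p = 0.0793). Ndufs3 was counted at 92.9, 86.8 and 111 CPM in Cys52Ser livers, against 59.1, 71.02 and 76.5 CPM in WT livers (log2 fold change 0.49, edgeR adjusted p = 0.0932). Ndufv2 and Ndufs8 had log2 fold changes of 0.41 and 0.33. In these 4 genes, WT replicate 1 was the lowest liver and Cys52Ser replicate 3 the highest.

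Among the other nuclear complex I genes, Ndufb9 and Ndufa4 were the most abundant of the nuclear Nduf genes per length, at 101 ± 3.46 FPKM in Cys52Ser livers and 103 ± 11.2 FPKM in WT livers for Ndufb9 and 91.95 ± 3.11 FPKM in Cys52Ser livers and 94.8 ± 10.7 FPKM in WT livers for Ndufa4 (SD, n = 3 each), although FPKM here rest on the transcript length that the authors' processing assigned. Ndufb9 was counted at 139, 123 and 138 CPM in Cys52Ser livers, against 87.6, 106 and 128 CPM in WT livers, and its groups overlapped because WT replicate 3 reached the Cys52Ser range (log2 fold change 0.32, edgeR adjusted p = 0.277). Ndufa4 was counted at 170.4, 146 and 171 CPM in Cys52Ser livers, against 107, 132 and 158 CPM in WT livers, with the same overlap (log2 fold change 0.30, edgeR adjusted p = 0.336). Ndufa12 (ENSMUSG00000020022) had the lowest log2 fold change of the complex, -0.16 (edgeR adjusted p = 0.648), at 15.7, 16.2 and 17.02 CPM in Cys52Ser livers, against 13.9, 19.4 and 21.4 CPM in WT livers. It was lower in every Cys52Ser liver on the deposited FPKM scale, at 7.75, 8.73 and 7.91 FPKM in Cys52Ser livers, against 9.499, 12.4 and 12.5 FPKM in WT livers. The processed pseudogene Ndufa12-ps took 1137, 1022 and 947 counts in Cys52Ser livers, against 973, 902 and 675 counts in WT livers, and how reads were divided between it and Ndufa12 was not tested, so the value of either is uncertain. The other negative member was Ndufa4l2, a low-level relative of Ndufa4 known as a hypoxia target, at 2.26, 1.99 and 1.34 CPM in Cys52Ser livers, against 1.67, 2.48 and 2.01 CPM in WT livers (log2 fold change -0.14, edgeR adjusted p = 0.86).

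Complex II, succinate dehydrogenase, is made of 4 nuclear subunits and also works in the citric acid cycle. After TMM scaling all 4 lay higher in every Cys52Ser liver than in any WT liver, where 14.4% of all tested genes did. Their log2 fold changes were 0.35 to 0.56. All 4 had an unadjusted edgeR p under 0.05, where 11.3% of all tested genes were higher at that level. None passed edgeR's adjusted threshold. On the deposited FPKM the groups of Sdhb and Sdhd stayed apart, and those of Sdha and Sdhc overlapped. Sdhd (ENSMUSG00000000171), a membrane anchor, was counted at 226, 192 and 243 CPM in Cys52Ser livers, against 130.5, 150.1 and 167 CPM in WT livers, a log2 fold change of 0.56 (SE 0.15, edgeR adjusted p = 0.0739). Sdhb, the iron-sulfur subunit, was counted at 177, 161 and 215 CPM in Cys52Ser livers, against 107, 125 and 148 CPM in WT livers, a log2 fold change of 0.54 (SE 0.17, edgeR adjusted p = 0.109). Sdha, which holds the flavin and oxidises succinate, was counted at 447, 435 and 539 CPM in Cys52Ser livers, against 326, 344 and 373 CPM in WT livers, a log2 fold change of 0.45 (SE 0.14, edgeR adjusted p = 0.118). Sdhc, the other anchor, was counted at 192, 169 and 198 CPM in Cys52Ser livers, against 131, 142 and 166 CPM in WT livers, a log2 fold change of 0.35 (edgeR adjusted p = 0.173). In all 4, WT replicate 1 was the lowest liver and Cys52Ser replicate 3 the highest.

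In complex III the nuclear median was 0.36. Uqcrc2, a core protein, lay near it with a log2 fold change of 0.35 (edgeR adjusted p = 0.195). Uqcrc1, the other core protein, was counted at 264, 278 and 379 CPM in Cys52Ser livers, against 186, 215 and 239.7 CPM in WT livers (log2 fold change 0.52, edgeR adjusted p = 0.141). Uqcrfs1, the Rieske protein, was counted at 198, 201 and 273 CPM in Cys52Ser livers, against 125, 166 and 183 CPM in WT livers (log2 fold change 0.50, edgeR adjusted p = 0.176). In both, Cys52Ser replicate 3 stood well above the other Cys52Ser livers. Uqcrb, which lies near the ubiquinone site, was counted at 97.9, 87.6 and 102 CPM in Cys52Ser livers, against 53.99, 59.8 and 83.96 CPM in WT livers and had the highest log2 fold change of the complex, 0.54 (edgeR adjusted p = 0.122; 0.70 and 0.0338 without WT replicate 3, which was the highest WT liver). Uqcr10, a small subunit and among the most abundant of the complex per length, was counted at 84.8, 78.1 and 103 CPM in Cys52Ser livers, against 54.3, 71.7 and 81.7 CPM in WT livers, and its groups overlapped (log2 fold change 0.36, edgeR adjusted p = 0.287).

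The assembly factors of complex III that help mt-Cytb to be made had unlike values. Uqcc1 (ENSMUSG00000005882) had the lowest p of all nuclear members, at 47.7, 42.1 and 49.1 CPM in Cys52Ser livers, against 28.5, 32.4 and 36.8 CPM in WT livers (log2 fold change 0.51, SE 0.12, edgeR adjusted p = 0.0627), and passed the threshold with the mean CPM filter (adjusted p = 0.0493). Its partner Uqcc2 was counted at 14.3, 13.9 and 14.4 CPM in Cys52Ser livers, against 13.3, 16.3 and 15.2 CPM in WT livers, with overlapping groups (log2 fold change -0.07, edgeR adjusted p = 0.791), and the gene was called lower by limma on the deposited FPKM (log2 difference -0.40, adjusted p = 0.0328). Uqcc3 was counted at 15.8, 9.66 and 11.96 CPM in Cys52Ser livers, against 11.9, 10.95 and 12.8 CPM in WT livers (log2 fold change 0.07).

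Complex IV had the lowest nuclear median, 0.26, and 2 of its 15 tested nuclear members, Cox5a and Cox7b, lay higher in every Cys52Ser liver than in any WT liver, a share near the 14.4% of all tested genes so parted. Cox5a was counted at 134, 126 and 158 CPM in Cys52Ser livers, against 92.1, 113 and 117 CPM in WT livers (log2 fold change 0.37, edgeR adjusted p = 0.173). Cox7b was counted at 81.1, 77.3 and 79.8 CPM in Cys52Ser livers, against 52.7, 63.3 and 70.4 CPM in WT livers (log2 fold change 0.35, edgeR adjusted p = 0.145). Cox6a1 and Cox8a were the most abundant nuclear subunits per length. Cox6a1 was counted at 257, 224 and 312 CPM in Cys52Ser livers, against 177, 209.8 and 242 CPM in WT livers. Cox8a was counted at 171, 153 and 189 CPM in Cys52Ser livers, against 119, 146 and 162 CPM in WT livers. Their log2 fold changes were 0.34 and 0.26 (edgeR adjusted p = 0.313 and 0.361). Cox4i1, Cox6b1 and Cox7a2, further common subunits of liver, had log2 fold changes of 0.25, 0.24 and 0.18, and their groups overlapped.

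Several complex IV subunits have tissue isoforms, and the liver forms held nearly all of the RNA. Cox6a2, the heart and muscle partner of Cox6a1, was counted at 0.291, 0.884 and 0.593 CPM in Cys52Ser livers, against 0.278, 0.444 and 0.364 CPM in WT livers and made up 0.234% ± 0.149 of the summed FPKM of the pair in Cys52Ser livers and 0.174% ± 0.035 in WT livers (SD, n = 3 each). Cox7a1, the heart and muscle partner of Cox7a2, was counted at 0.367, 0.552 and 0.115 CPM in Cys52Ser livers, against 0.6197, 0.674 and 0.485 CPM in WT livers and made up 0.687% ± 0.481 in Cys52Ser livers and 1.35% ± 0.39 in WT livers. These have the highest and the lowest log2 fold changes of all nuclear members, 0.70 with an interval of -0.64 to 2.04 and -0.78 with an interval of -2.26 to 0.71. Both intervals include 0. Striated muscle markers summed to 7.79, 30.1 and 0.096 CPM in Cys52Ser livers, with 6 of 8 at 0 in replicate 3, against 2.85, 3.52 and 5.06 CPM in WT livers. Their part in these isoform values was not tested. The testis form Cox6b2 was counted at 0.658, 0.276 and 0.268 CPM in Cys52Ser livers, against 0.1897, 0.543 and 0.503 CPM in WT livers. Cox4i2, the lung form, had 9, 8 and 0 counts in Cys52Ser livers, against 24, 14 and 9 counts in WT livers, and Cox8b, the muscle form, had 4, 5 and 0 counts against 0 in each WT liver. At such counts no difference was detectable.

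Cox7a2l (ENSMUSG00000024248), a relative of Cox7a2 that joins complexes III and IV into supercomplexes, had a log2 fold change near 0. It was counted at 132, 106 and 124 CPM in Cys52Ser livers, against 113, 124 and 136 CPM in WT livers, with WT replicate 3 the highest of all and a value of -0.04 (SE 0.13, edgeR adjusted p = 0.896). It is the only nuclear member called lower with library totals in place of TMM factors (log2 fold change -0.39, edgeR adjusted p = 0.035, where 14.6% of all tested genes were called lower), and on the deposited FPKM it was counted at 68.9, 61.0 and 61.5 FPKM in Cys52Ser livers, against 81.9, 84.3 and 84.5 FPKM in WT livers. Without Cys52Ser replicate 2 its TMM-scaled value turned to 0.04.

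In complex V all 17 nuclear members had positive log2 fold changes, with a median of 0.31. Atp5a1 (ENSMUSG00000025428) and Atp5b encode the alpha and beta subunits, between which ATP is made. Atp5a1 was counted at 931, 957 and 1216 CPM in Cys52Ser livers, against 616, 718 and 738 CPM in WT livers (log2 fold change 0.58, SE 0.17, edgeR adjusted p = 0.0902). Atp5b, the most counted nuclear member, was counted at 1166, 1247 and 1579 CPM in Cys52Ser livers, against 818, 1098 and 1049 CPM in WT livers (log2 fold change 0.43, edgeR adjusted p = 0.233). In Atp5a1 the groups were wide apart, and in Atp5b the gap between WT replicate 2 and Cys52Ser replicate 1 was narrow. The other F1 subunits, Atp5c1 (gamma), Atp5d (delta) and Atp5e (epsilon), also did not overlap, at log2 fold changes of 0.28, 0.34 and 0.31.

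The c-ring of complex V is built from 1 mature protein that 3 genes encode. Atp5g3 (ENSMUSG00000018770) was counted at 291, 271 and 326 CPM in Cys52Ser livers, against 178, 220.2 and 221 CPM in WT livers (log2 fold change 0.52, SE 0.14, edgeR adjusted p = 0.0815). Atp5g2, which had the lowest log2 fold change of the complex, was counted at 91.5, 94.7 and 98.4 CPM in Cys52Ser livers, against 73.3, 92.2 and 97.3 CPM in WT livers (log2 fold change 0.12, edgeR adjusted p = 0.661), and its sign turned with library totals (-0.23). As shares of the summed FPKM of the 3 genes, which need no scaling factor, Atp5g3 made up 64.0%, 61.9% and 64.1% in Cys52Ser livers, against 59.6%, 57.3% and 57.1% in WT livers. Atp5g2 made up 26.2%, 28.2% and 25.2% in Cys52Ser livers, against 31.9%, 31.2% and 32.8% in WT livers. Neither share overlapped between the groups, while that of Atp5g1 did (10.13% ± 0.56 in Cys52Ser livers and 10.03% ± 1.5 in WT livers, SD, n = 3 each). These shares rest on the lengths that the authors' FPKM assigned to each gene.

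Set side by side, the mitochondrially encoded members had a median log2 fold change 0.195 above that of the nuclear members (0.50 for mitochondrial and 0.30 for nuclear members), and the spread of this difference between libraries of a group was a pooled SD of 0.133. The difference was 0.144 to 0.291 over all 20 alternative settings, lowest without WT replicate 3 and highest without WT replicate 2. Settings that change only the scaling factors move both medians alike and cannot alter it much. The ratio of summed mitochondrial to summed nuclear FPKM, which has no scaling factor in it, was 11.8, 11.9 and 11.3 in Cys52Ser livers, against 10.52, 11.03 and 9.21 in WT livers, so the groups did not overlap. The ratio of counts was 6.63, 6.46 and 6.15 in Cys52Ser livers, against 6.02, 6.19 and 5.30 in WT livers. There, WT replicate 2 lay just above Cys52Ser replicate 3. As a share of all counts, the nuclear members took 0.944%, 0.978% and 1.01% in Cys52Ser libraries, against 0.887%, 1.002% and 0.999% in WT libraries. These ranges overlapped in part.

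The upward shift of the nuclear members is thus a shift relative to the TMM scale. With library totals alone the median log2 fold change over all tested genes became -0.35, that of the nuclear members -0.04 (28 of 85 positive) and that of the mitochondrial members 0.15 (13 of 13 positive). Relative to the median of all tested genes the nuclear members stood 0.31 higher and the mitochondrial members 0.50 higher on both scales. A change of scaling factors moves all genes by about the same amount, so these offsets could hardly differ between the scales. With limma on log2(FPKM + 0.5), over genes of mean FPKM of at least 0.5, the offsets were 0.24 for nuclear and 0.43 for mitochondrial members. On the deposited FPKM, 6 of the 85 tested nuclear members lay higher and 13 lower in every Cys52Ser liver than in any WT liver, where 4.71% and 37.7% of all tested genes did. There, limma on log2(FPKM + 0.5) called mt-Nd4l higher and Ndufa12, Uqcc2 and Cox7a2l lower, where it called 2.58% of its tested genes higher and 20.7% lower.

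**Figure D4:**
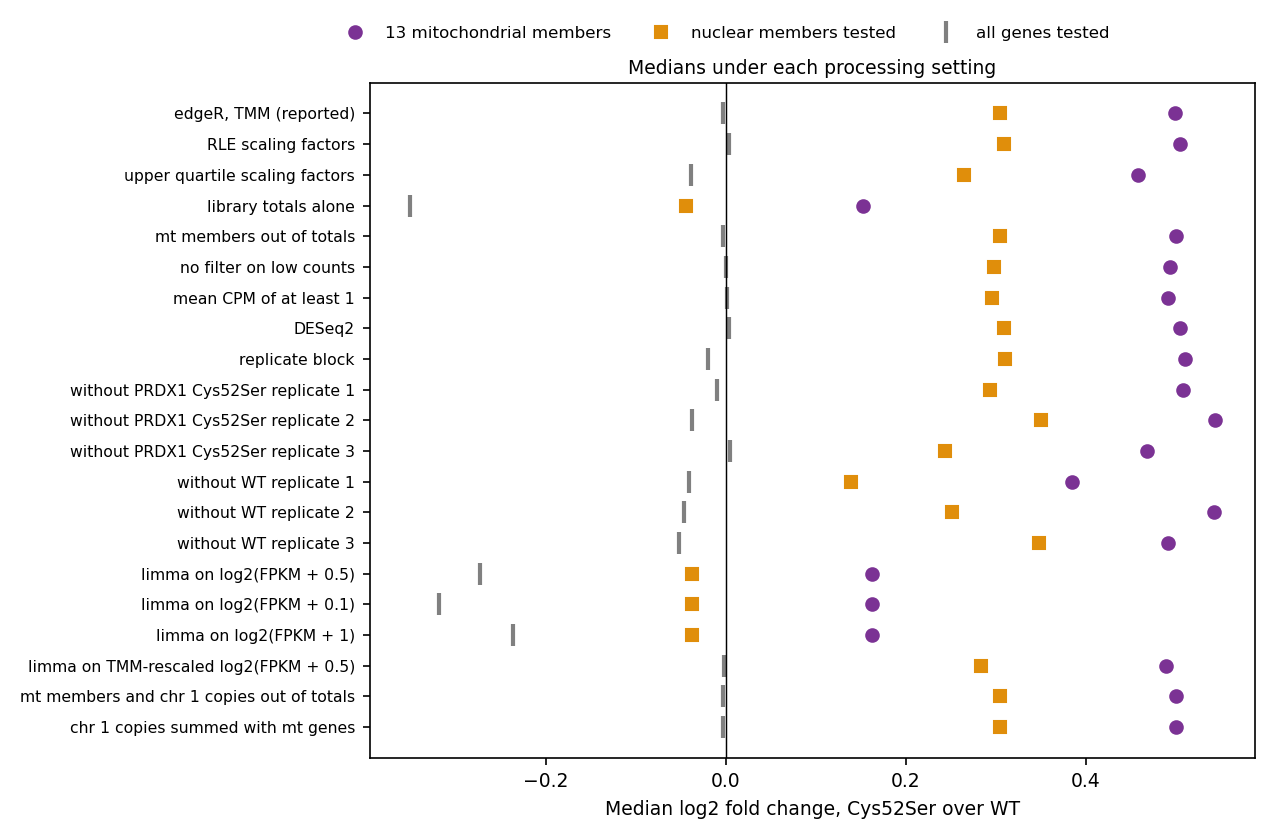
Median log2 fold change (Cys52Ser over WT) of the 13 mitochondrial members, of the tested nuclear members and of all tested genes under the reported setting and 20 alternatives, with each library left out in turn among them. The mitochondrial median stays above 0 throughout (0.15 to 0.54), whereas the nuclear median lies just below 0 with library totals and on unscaled FPKM (-0.04) and is highest without Cys52Ser replicate 2 (0.35).

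Members of both genomes were high or low in the same livers. WT replicate 1 had the lowest level in 79 of 85 tested nuclear members and in 10 of 13 mitochondrial members, the other 3 being lowest in WT replicate 3, and Cys52Ser replicate 3 had the highest in 58 nuclear and 10 mitochondrial members. The median deviation from each gene's mean over the 6 libraries, on the log2 scale, was 0.28, 0.18 and 0.35 in Cys52Ser livers against -0.43, -0.09 and -0.28 in WT livers for mitochondrial members. For nuclear members it was 0.16, 0.03 and 0.26 in Cys52Ser livers against -0.36, -0.14 and 0.04 in WT livers, so WT replicate 3 overlapped with Cys52Ser replicate 2. Without WT replicate 1 the nuclear median log2 fold change was 0.14 and the mitochondrial one 0.38. The summed hepatocyte markers had the same lowest liver (WT replicate 1) and the same highest (Cys52Ser replicate 3). The part of that in the members' values was not tested.

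**Figure D5:**
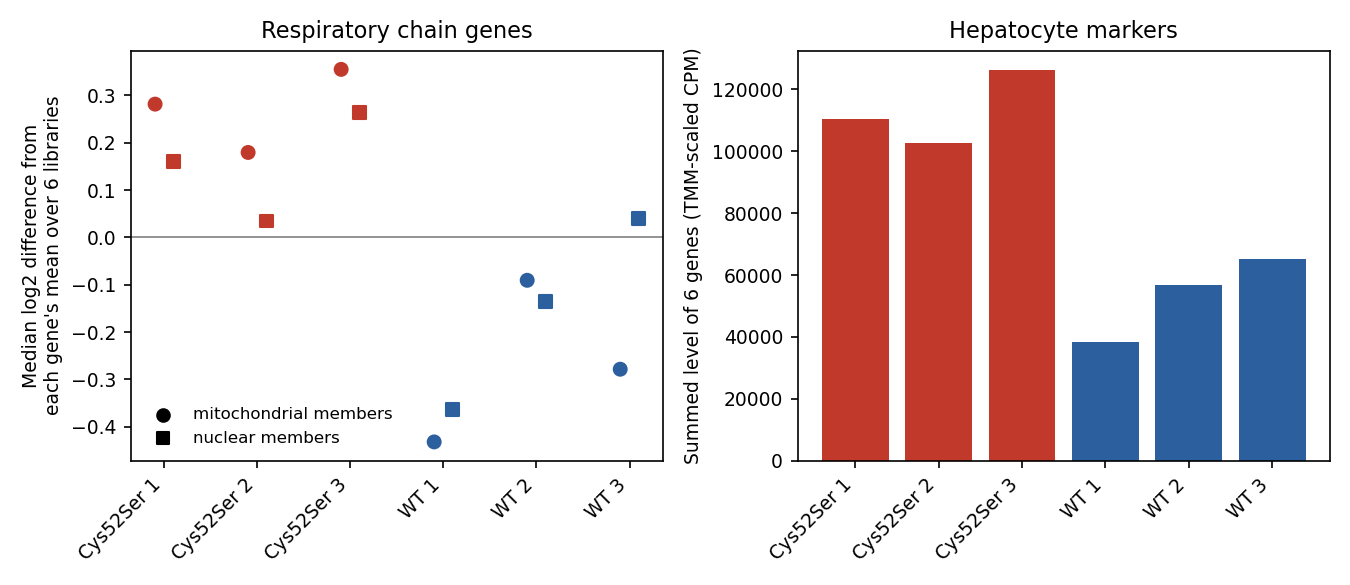
Left, median log2 difference of the mitochondrial (13) and tested nuclear (85) members from each gene's mean over the 6 libraries, by library; right, the summed TMM-scaled level of 6 hepatocyte markers in CPM, with bars starting at 0. WT replicate 1 is lowest and Cys52Ser replicate 3 highest in both panels.

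Across the 85 tested nuclear members the log2 fold change was larger for more abundant genes, with Pearson's r = 0.54 and Spearman's rho = 0.52 against mean CPM, and r = 0.40 and rho = 0.29 against mean FPKM. It also ran with the transcript length that the table implies (r = 0.35, rho = 0.42). These are correlations across genes of the same 6 libraries, not across replicates, and are given as a description.

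For 71 of the 87 nuclear members, RefSeq (GRCm38.p6) promoter windows of 250 bases before to 50 after the start were at hand, 76 windows in all. Searched on both strands, the binding motif of NRF1 (GCGC and TGCGC parted by any base) occurred in 25% of these windows and in 6.38% of all 21263 windows. That of YY1 (AAGATGGC) occurred in 14.5% of these and 3.05% of all, that of ERR alpha (TCAAGGTCA) in 2.63% of these and 0.334% of all, and that of ETS factors such as GABPA (CCGGAAGT) in 6.58% of these and 5.15% of all. NRF1, GABPA, YY1 and ERR alpha are factors known to drive nuclear genes of the respiratory chain. The median log2 fold change was 0.29 for the 18 tested members with the NRF1 motif and 0.29 for the 52 without, 0.23 for the 11 with the YY1 motif and 0.30 for the 59 without, and 0.29 for the 5 with the ETS motif and 0.30 for the 65 without. The 2 members with the ERR alpha motif, Sdhd and Atp5g3, had 0.56 and 0.52, and the median of the 68 without was 0.29. Both also hold the NRF1 motif, and 2 genes are too few for a comparison. A match of letters is a description and not a site shown to be bound.

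The promoters of those 2 members are printed with the NRF1 and ERR alpha motifs in capitals, since the genes are among the nuclear members with the lowest p and hold both, and that of Ndufs3 for comparison with its ETS motif in capitals. All lie on the minus strand of GRCm38, Sdhd at chr9:50603800-50604099, Atp5g3 at chr2:73911277-73911576 and Ndufs3 at chr2:90904672-90904971, and are written 5′ to 3′.
Sdhd: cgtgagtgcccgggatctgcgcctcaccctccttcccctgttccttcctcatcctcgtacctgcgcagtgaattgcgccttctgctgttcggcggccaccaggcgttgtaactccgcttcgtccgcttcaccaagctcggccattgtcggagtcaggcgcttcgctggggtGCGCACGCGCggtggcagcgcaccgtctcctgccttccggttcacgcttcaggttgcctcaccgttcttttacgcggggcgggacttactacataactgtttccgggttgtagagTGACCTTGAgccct
Atp5g3: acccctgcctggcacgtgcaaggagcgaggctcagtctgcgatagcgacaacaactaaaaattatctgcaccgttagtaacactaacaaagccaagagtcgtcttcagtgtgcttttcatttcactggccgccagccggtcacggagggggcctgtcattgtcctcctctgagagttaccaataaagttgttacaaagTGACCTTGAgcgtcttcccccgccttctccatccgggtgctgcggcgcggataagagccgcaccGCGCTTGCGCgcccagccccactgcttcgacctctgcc
Ndufs3: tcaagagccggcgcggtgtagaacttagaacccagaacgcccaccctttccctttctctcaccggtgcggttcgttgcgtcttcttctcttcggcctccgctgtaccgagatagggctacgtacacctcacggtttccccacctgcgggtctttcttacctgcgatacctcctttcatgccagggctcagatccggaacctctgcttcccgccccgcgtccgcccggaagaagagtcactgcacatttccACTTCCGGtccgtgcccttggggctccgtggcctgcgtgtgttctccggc
Of the genes of these factors, Esrra, which encodes ERR alpha, was called higher, at 58.1, 50.5 and 66.01 CPM in Cys52Ser livers, against 39.4, 37.9 and 38.2 CPM in WT livers (log2 fold change 0.60, SE 0.12, edgeR adjusted p = 0.0389). Nrf1, Gabpa and Yy1 had log2 fold changes of -0.09, 0.05 and -0.04. Ppargc1a, the coactivator of mitochondrial biogenesis, was counted at 10.3, 15.9 and 15.9 CPM in Cys52Ser livers, against 7.27, 15.8 and 9.65 CPM in WT livers, with overlapping groups (log2 fold change 0.37, edgeR adjusted p = 0.557). Ppara, a fatty acid receptor that drives oxidation genes, was the other of the 12 listed regulators called, at 77.3, 60.6 and 68.7 CPM in Cys52Ser livers, against 25.2, 17.8 and 31.3 CPM in WT livers (log2 fold change 1.47, edgeR adjusted p = 0.0207).

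Among genes that the name patterns miss, the listed chain components had positive log2 fold changes, and 2 genes of ATP synthase-associated proteins had negative ones. Ndufab1, a complex I subunit, had a log2 fold change of 0.33 with overlapping groups (edgeR adjusted p = 0.318). Cyc1, cytochrome c1 of complex III, was counted at 210.2, 207 and 295 CPM in Cys52Ser livers, against 133, 165 and 177 CPM in WT livers (log2 fold change 0.59, edgeR adjusted p = 0.114). Cycs, cytochrome c itself, was counted at 131, 139 and 154 CPM in Cys52Ser livers, against 86.3, 114 and 117 CPM in WT livers (log2 fold change 0.42, edgeR adjusted p = 0.144). Atpif1, which blocks ATP hydrolysis by complex V, was called lower, at 21.04, 22.2 and 19.5 CPM in Cys52Ser livers, against 30.7, 29.7 and 28.9 CPM in WT livers (log2 fold change -0.51, SE 0.10, edgeR adjusted p = 0.0389). All 3 Cys52Ser livers lay below all WT livers. Dmac2l, another ATP synthase-associated gene, was counted at 5.31, 4.42 and 7.503 CPM in Cys52Ser livers, against 8.08, 8.07 and 11.5 CPM in WT livers (log2 fold change -0.68, edgeR adjusted p = 0.165).

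Of 43 tested assembly factors, 3 were called higher and 0 lower, where 2.52% and 2.46% of all tested genes were, with a median log2 fold change of 0.12. Coa6, a copper-handling factor for mt-Co2, was counted at 35.5, 37.3 and 45.9 CPM in Cys52Ser livers, against 17.4, 20.3 and 22.8 CPM in WT livers (log2 fold change 0.97, edgeR adjusted p = 0.0232). Cox10, which makes the haem of complex IV, was counted at 16.1, 17.6 and 20.8 CPM in Cys52Ser livers, against 10.5, 11.02 and 8.30 CPM in WT livers (log2 fold change 0.87, edgeR adjusted p = 0.0355). Ndufaf4, a complex I factor, was counted at 47.4, 49.8 and 54.7 CPM in Cys52Ser livers, against 23.9, 33.05 and 31.6 CPM in WT livers (log2 fold change 0.78, edgeR adjusted p = 0.0329). In each the groups stood apart.

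Of 25 genes for transcription, replication and RNA handling of mitochondrial DNA, 3 were called higher and 0 lower, against the same 2.52% and 2.46% of all tested genes, with a median of 0.18. Lrpprc, which stabilises mitochondrial mRNAs, was counted at 97.9, 101 and 127 CPM in Cys52Ser livers, against 64.98, 77.1 and 72.1 CPM in WT livers (log2 fold change 0.61, edgeR adjusted p = 0.0499), just inside the threshold. Its partner Slirp was counted at 11, 8.19 and 10.9 CPM in Cys52Ser livers, against 9.42, 10.2 and 9.51 CPM in WT livers (log2 fold change 0.04, edgeR adjusted p = 0.917). Fastkd1, which in human cells acts on the level of the ND3 mRNA, was counted at 25.2, 28.5 and 33.1 CPM in Cys52Ser livers, against 17.01, 18.1 and 16.01 CPM in WT livers (log2 fold change 0.77, edgeR adjusted p = 0.0277). Hsd17b10, a subunit of mitochondrial RNase P, was counted at 109.6, 98.2 and 125 CPM in Cys52Ser livers, against 69.5, 63.7 and 75.3 CPM in WT livers (log2 fold change 0.67, edgeR adjusted p = 0.0348). The polymerase Polrmt and the packaging factor Tfam had log2 fold changes of 0.49 and 0.42 (edgeR adjusted p = 0.102 and 0.126).

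Other RNAs of mitochondrial DNA did not follow the mRNAs alike. Of the rRNAs, which poly(A) selection does not aim at, mt-Rnr1 was counted at 261, 191 and 202 CPM in Cys52Ser livers, against 149.7, 361 and 376 CPM in WT livers. mt-Rnr2 was counted at 363, 291 and 304 CPM in Cys52Ser livers, against 268, 433 and 469 CPM in WT livers. In both, WT replicate 1 lay far below WT replicates 2 and 3, and the log2 fold changes were -0.44 and -0.29 (edgeR adjusted p = 0.519 and 0.515). All 18 tested tRNA genes had positive log2 fold changes, where 49.7% of all tested genes did, with a median of 0.69. Of these, 3 neighbours around mt-Nd2 were called higher and none was called lower, where 2.52% and 2.46% of all tested genes were. Their log2 fold changes were 1.07 (mt-Tq), 1.22 (mt-Tm) and 1.64 (mt-Tw), with edgeR adjusted p of 0.0183, 0.0177 and 0.0465. mt-Tm was counted at 29.7, 29.03 and 33.3 CPM in Cys52Ser livers, against 16.2, 11.7 and 11.7 CPM in WT livers. These counts do not separate mature tRNAs from longer RNAs that span them, and mt-Tw overlaps mt-Nd2 on the same strand.

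Genes for other mitochondrial functions had smaller medians than the members. Of 78 mitochondrial ribosomal protein genes 0 were called (8 were higher and 0 lower at an unadjusted p under 0.05, where 11.3% and 11.1% of all tested genes were, so the higher share is near the background), with a median log2 fold change of 0.11. Among them Mrpl4 had the lowest p (log2 fold change 0.36, edgeR adjusted p = 0.0979). Of 13 genes of ubiquinone synthesis 0 were called (2 higher and 0 lower at that unadjusted p), with a median of 0.14 and the lowest p at Pdss1 (0.88, edgeR adjusted p = 0.0729). Of 10 outer membrane, import and matrix genes 0 were called (2 higher and 0 lower at that unadjusted p), with a median of 0.19. Citrate synthase, Cs, a common measure of mitochondrial mass, was counted at 139.9, 157 and 154 CPM in Cys52Ser livers, against 159, 128 and 146 CPM in WT livers (log2 fold change 0.06, edgeR adjusted p = 0.832), with overlapping groups. Of 10 genes of mitophagy, fusion and fission, 2 were called higher and 0 lower, again where 2.52% and 2.46% of all tested genes were. Bnip3, a mitophagy receptor, was counted at 234, 170.4 and 233 CPM in Cys52Ser livers, against 88.7, 104 and 138 CPM in WT livers (log2 fold change 0.95, edgeR adjusted p = 0.0467). Mfn2, a fusion protein, was counted at 121, 119 and 133 CPM in Cys52Ser livers, against 87.1, 66.1 and 83.3 CPM in WT livers (log2 fold change 0.66, edgeR adjusted p = 0.0403).

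The calls of these listed genes depended in part on the scale. Outside the cell type markers, 14 listed genes were called with TMM factors, and all 14 had the same sign with library totals, where the median over all tested genes was -0.35. Of these, 6 were still called with library totals by edgeR: Atpif1 lower, and Coa6, Ppara, Bnip3, mt-Tq and mt-Tm higher. The other 8, Esrra, Cox10, Ndufaf4, Lrpprc, Fastkd1, Hsd17b10, Mfn2 and mt-Tw, were not, with adjusted p between 0.0572 and 0.155. On the deposited FPKM the groups did not overlap for 13 of the 14. Of all tested genes, 4.71% were so parted in the higher and 37.7% in the lower direction. The 14 were picked by calls on the same 6 libraries, so neither their sign with library totals nor this parting is separate support. The groups of Lrpprc overlapped, at 8.91, 10.1 and 10.9 FPKM in Cys52Ser livers, against 8.22, 9.12 and 7.77 FPKM in WT livers. Tfam was at 9.21, 7.92 and 8.88 FPKM in Cys52Ser livers, against 8.103, 8.26 and 8.48 FPKM in WT livers, with overlapping groups. With library totals the median log2 fold change was -0.23 for the assembly factors, -0.17 for the genes of mitochondrial DNA transcription, replication and RNA, -0.23 for the mitochondrial ribosomal proteins and 0.33 for the tRNA genes.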

How the data were processed

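Poly(A)-selected, strand-marked liver RNA with unique molecular identifiers was sequenced from 6 mice, per the labels' protocols. Per the submitters' processing notes, HISAT2 2.0.4, StringTie 1.3.4d and cutadapt 1.9 were among the tools, with UMI-tools, edgeR and DESeq2 and a build of mm9; their roles are not stated. The deposited table holds whole-number estimated counts (expected counts) and FPKM per gene and library, per the file headers. Its coordinates are those of GRCm38: of the 100 members, 100 were found in GENCODE M21 and 86 had identical coordinates there. No source used here says if strand entered the counting.

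Groups came from the titles. Counts, which needed no rounding, were filtered (filterByExpr, minimum count 10), scaled by TMM and fitted with edgeR 4.0.16 in R 4.3.3 (robust quasi-likelihood, genotype alone, all 6 libraries). The design named limma on FPKM unless the table held counts, and the estimated counts were taken to meet that. P-values were Benjamini-Hochberg adjusted over 18648 genes at 0.05. With 3 mice a group, nothing says that litters or cages were shared or separate. Precision rests on 53318196 to 73900923 counts per library and on 3 mice per group.

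Alternatives were other scalings and filters, DESeq2 1.42.0, a replicate block, each library left out, and limma 3.58.1 on log2(FPKM + 0.5, 0.1 or 1) for genes of mean FPKM of at least 0.5. The test was checked on simulated data. Members and lists were chosen with earlier results of these data known. Named genes were all mitochondrial and complex II members, the tissue isoforms, the most abundant, lowest-p and extreme nuclear members of each complex, and the called or lowest-p gene of each list; other named genes were chosen after their values were seen. 1 member is not reported singly here. Sequences came from GENCODE M21 transcripts and RefSeq promoter windows.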

Additional observations from a re-analysis of the deposited data

Results flagged for a closer look

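Counts outside the members' rows that sit on near-copies of members drew attention. The chromosome 1 copies of 7 mitochondrial genes took at least 1.43% of all counts in each of the 6 libraries, the lowest being WT replicate 1. Leaving them and the mitochondrial members out of the library totals, a choice made after seeing the data, kept the mitochondrial median log2 fold change at 0.50 and the nuclear one at 0.30.

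The processed pseudogene Ndufa12-ps took 5656 counts over the 6 libraries. It had a log2 fold change of 0.48 (edgeR adjusted p = 0.0814), opposite in sign to that of Ndufa12 (-0.16, edgeR adjusted p = 0.648). Together, Ndufa12 and Ndufa12-ps took 2165, 1900 and 1836 counts in Cys52Ser livers, against 2070, 2080 and 1909 counts in WT livers. Ndufb4c, a processed pseudogene named after Ndufb4, took 3381 counts over the 6 libraries, with a log2 fold change of 0.24 (edgeR adjusted p = 0.559). How the reads were divided between each gene and its copy was not tested.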

How the results depend on the processing

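All 13 mitochondrial members kept a positive log2 fold change under all 20 alternatives, and the mitochondrial median exceeded the nuclear one in each. Alternatives that change only the scaling factors move both medians alike, so they cannot test the difference between the 2. With library totals alone 3017 genes were called over all tested, 1 nuclear member was called (Cox7a2l, lower), and the medians were -0.045 for nuclear and 0.15 for mitochondrial members. On unscaled FPKM with pseudocounts of 0.5, 0.1 and 1, limma called 3250, 3271 and 3236 genes and 3 nuclear members each time, and the nuclear medians were -0.038, -0.038 and -0.037 and the mitochondrial ones 0.16. RLE factors called 2 mitochondrial members and 965 of 18648 genes, and the filter of mean CPM of at least 1 called 2 mitochondrial and 2 nuclear members and 1182 of 14661 genes. DESeq2 called 2737 of 18648 genes, with 12 mitochondrial and 15 nuclear members among those called higher. With a replicate block on the number in the titles, 729 genes and 0 mitochondrial members were called (edgeR adjusted p = 0.0701 for mt-Nd4l). Correlations of same-numbered livers were -0.04, 0.14 and 0.02, and only replicate 2 correlated best with its own number. With 3 livers a group, such values cannot show if the numbers pair livers by litter or cage. With each library left out, 28 (without Cys52Ser replicate 3) to 790 (without WT replicate 3) genes, 0 to 1 mitochondrial and 0 to 1 nuclear members were called, against 928, 1 and 0 with all 6. Leaving out Cys52Ser mouse 1 gave 31 genes and Cys52Ser mouse 2 gave 504, WT mouse 1 gave 409 and WT mouse 2 gave 57, and the nuclear median was 0.14 to 0.35, lowest without WT replicate 1.

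Some nuclear members changed sign on scales without TMM factors. With library totals the log2 fold change was -0.23 for Atp5g2, -0.11 for Cox4i1, -0.018 for Cox6a1, -0.10 for Cox6b1, -0.16 for Cox7a2, -0.085 for Cox8a, -0.047 for Ndufa4 and -0.024 for Ndufb9. On FPKM with pseudocounts of 0.5, 0.1 and 1 it was -0.22 each for Atp5g2, -0.10 each for Cox4i1, -0.015 each for Cox6a1, -0.095, -0.095 and -0.094 for Cox6b1, -0.15 each for Cox7a2, -0.079 each for Cox8a, -0.038 each for Ndufa4 and -0.016 each for Ndufb9. With each library left out, the log2 fold change was -0.048 to 0.14 for Atp5g2 and -0.00037 to 0.25 for Cox7a2 (both lowest without WT replicate 1), -0.16 to 0.044 for Cox7a2l (highest without Cys52Ser replicate 2) and -0.59 to 0.19 for the low-count Cox6b2. The cause was not tested. Depth limits Cox4i2, Cox8b, Cox6a2, Cox6b2 and Cox7a1.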

Other observations

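Of the 13 matched names left out because no transcript type was protein coding, 8 had enough counts to be tested and none was called by edgeR; at an unadjusted p under 0.05, Ndufa12-ps alone was higher and 0 were lower.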
